A study of Mus musculus with 20 samples.

Results

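The semaphorins, plexins and neuropilins were followed through all RIP-seq and mRNA-seq libraries of the study as a list of 31 genes: 20 semaphorins, 9 plexins and 2 neuropilins. Their annotated 3′UTRs gave 62 of the 38158 regions counted in the RIP-seq, and 60 RefSeq transcripts carried their symbols in the mRNA-seq, which covered 23781 gene symbols. All 20 samples came from the hippocampus of adult C57BL/6 mice. The RIP-seq had 2 libraries per group, each from the pooled lysate of 2 hippocampi: AAV5-GFP-AGO2 carrying in the same transcript a sponge (a string of binding sites that occupies a miRNA) for miR-124 (miR124sp), for miR-125 (miR125sp) or for miR-292 (miR292sp, the control sponge), and sham-injected mice without GFP-AGO2. The 8 precipitates were made with antibodies to GFP. The mRNA-seq had 3 single mice per group, miR124sp with GFP against GFP alone, and miR125sp with GFP against GFP alone in other mice. Every vector used a synapsin promoter, which is active in neurons, whereas the RNA came from lysates of the whole hippocampus. Nothing in the labels says whether mice of a group shared a litter or an injection day, so that the p-values measure the spread between these libraries.

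Semaphorins are guidance cues for growing axons and migrating cells, and in the adult hippocampus they also act on dendritic spines and synapses. Class 3 members are secreted and bind neuropilins, which pass the signal on through plexins of the A type, while classes 4 to 6 span the membrane and Sema7a is held there by a lipid anchor; most of these bind plexins directly. Plexins act inside the cell as switches for small GTPases and so reshape actin and adhesion.

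In the RIP-seq, 19 3′UTRs of 18 of the 31 genes held at least 10 counts in each of the 8 libraries and were tested, among 8203 tested in all. The tested members were Nrp1, Nrp2 with 2 alternative 3′UTRs, Plxna1, Plxna2, Plxna4, Plxnb1, Plxnb2, Plxnc1, Sema3c, Sema3d, Sema3e, Sema4b, Sema4f, Sema4g, Sema5a, Sema5b, Sema6b and Sema7a. Of the other 13 genes, Plxna3, Sema3b, Sema4a and Sema6d had no counts in any library, Sema3g and Sema4d at most 1, and Sema6a at most 3. For Plxna3, Sema4a, Sema4d and Sema6d at most 4 bases of any row lay outside other annotated rows. The rows of Sema6a had at most 1 such base, except for a row of 317 bases. Of the Sema3b rows, 1 had 137 bases of its own and the others 0. Of the 11713 regions in the table with no base of their own, 94.4% were at 0 in all 8 libraries, against 22.9% of the 14860 that shared no base. The counts of Plxna3, Sema3b, Sema4a, Sema4d, Sema6a and Sema6d were therefore not read as levels. Plxnb3, Plxnd1, Sema3a, Sema3f, Sema4c and Sema6c had counts, with a highest value of 74 in any library, in Plxnd1. The row of Plxna4 that was tested had 1361 of its 5924 bases to itself. Of the 8 markers of the labelled hippocampal neurons, 6 had RIP-seq counts and Syt1 and Map2 had none. Totals per RIP library ran over 2417942 to 5072501 counts, and those per mRNA library over 6950522 to 27833176.

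The mRNA-seq divided the family in another way. The 22 members with a single RefSeq transcript had at least 1356 counts over the 12 mice. The 9 members with several transcripts, Nrp2, Plxnb2, Sema3a, Sema3b, Sema4a, Sema4d, Sema6b, Sema6c and Sema6d, had at most 294, and Nrp2 and Sema3b were at 0 in all 12. Since Nrp2 and Plxnb2 were well covered in the RIP-seq, the mRNA counts of these 9 genes were not read as levels. Per kilobase of transcript, the single-transcript members of the 6 GFP mice were led by Sema7a, at 48.8 ± 5.4 CPM per kb (SD, n = 6), and the co-receptor Nrp1, at 35.4 ± 7.5. Plxna1 followed at 31.1 ± 4.4 and Plxna4 at 29.8 ± 7.9, and Nrp1, Plxna1 and Plxna4 lay within each other's spread. Plxnb1, the receptor of Sema4d, had 23.9 ± 3.8. The order below Sema7a differed between the 2 GFP groups, with Plxna4 at 36.7 and Plxnb1 at 21.3 CPM per kb in the GFP mice of the miR-125 experiment, against 23.0 and 26.5 in those of the miR-124 experiment. Sema5a had 19.1 ± 4.3 and Sema3e, a secreted ligand that binds plexin D1, 17.4 ± 3.8, whereas Sema3f and Sema3g were lowest at 1.63 ± 0.35 and 1.69 ± 0.34 CPM per kb.

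The first comparison asked which members were bound to AGO2, by setting the miR292sp precipitates against sham. Of the 19 member 3′UTRs, 13 were higher in the miR292sp libraries and 0 lower (edgeR's quasi-likelihood test, Benjamini-Hochberg adjusted p below 0.05), where 59.4% of all 8203 were higher and 0.585% lower. Their median log2 fold change was 2.24, against 1.26 over all 3′UTRs. The members that rose were both neuropilins, 5 of the 6 tested plexins and the membrane-bound semaphorins Sema4b, Sema4f, Sema4g, Sema6b and Sema7a. The secreted Sema3c, Sema3d and Sema3e and the class 5 semaphorins Sema5a and Sema5b did not pass. Libraries were scaled to the genes that stand around Gapdh in the list of raw ratios, and enrichment is the scaled count divided by the sham mean.

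Sema7a, which signals through plexin C1 and β1 integrins, had 1219 and 1595 counts in the miR292sp libraries against 39 and 64 in sham (3′UTR on chromosome 9 of mm9, 57809409 to 57810671). Its enrichment of 33.9 and 42.1 gave a log2 fold change of 5.27 (SE 0.31, adjusted p = 3.02e-10, edgeR) and the rank 8194 of 8203. Sema4f, a transmembrane semaphorin of the postsynaptic density, had 3124 and 3169 counts with miR292sp and 129 and 344 in sham. Both miR292sp libraries lay far above the sham pair, at a log2 fold change of 4.19 (SE 0.37, adjusted p = 2.62e-08, edgeR), which was 4.84 without sham replicate 8. Sema6b, a transmembrane ligand of Plxna4, had 643 and 737 counts against 149 and 104 in sham (2.99, SE 0.27, adjusted p = 4.31e-08, edgeR). Sema4b, a transmembrane ligand of excitatory synapses, had 498 and 422 counts against 111 and 106 (2.61, SE 0.31, adjusted p = 1.19e-06, edgeR). Sema4g stood at a smaller enrichment of 2.24 and 2.26 (log2 fold change 1.17, SE 0.25, adjusted p = 0.000665, edgeR). It is the member whose call rested on the scaling and on 1 library: under TMM its log2 fold change was −0.20, and without sham replicate 8 it was 0.69 (adjusted p = 0.0626).

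The other 5 ligands did not pass in this scaling. Sema5b, a transmembrane ligand like Sema5a, had an enrichment of 1.17 and 2.09, both above its sham pair, with a log2 fold change of 0.71 and a 95% interval of −0.51 to 1.93. Sema5a, which has thrombospondin repeats in its extracellular part, had 4107 and 3925 counts with miR292sp and 6893 and 5865 in sham, and an enrichment of 0.96 and 0.87. Sema3e had an enrichment of 1.03 and 1.14, Sema3d 0.91 and 1.09, and Sema3c 1.27 and 0.58, with the libraries of these 3 overlapping their own sham range, whereas both libraries of Sema5a lay below theirs. The 95% interval of the log2 fold change was −0.41 to 0.14 for Sema5a and −0.36 to 0.60 for Sema3e, and reached −1.19 to 0.95 for Sema3c with its 30 to 105 counts. Under TMM, which brings the median of all 3′UTRs to −0.11 in place of 1.26, 12 members were higher and 4 lower: Sema5a (log2 fold change −1.50), Sema3c (−1.52), Sema3d (−1.33) and Sema3e (−1.24). Sema5a was also lower without sham replicate 8 (−0.55, adjusted p = 0.0102). Across the whole table the split of higher to lower moved with the scaling as well, with 4872 to 48 on the Gapdh scaling and 1768 to 1563 under TMM.

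Among the receptors, Nrp2, the neuropilin that Sema3f prefers, was tested on 2 3′UTRs of chromosome 1. The longer, of 3058 bases, had 1197 and 1057 counts in the miR292sp libraries against 76 and 93 in sham (log2 fold change 4.25, SE 0.29, adjusted p = 1.59e-09, edgeR). The shorter, of 992 bases, had 106 and 98.9 CPM with miR292sp against 42.5 and 7.69 in sham, where the 2 libraries differed more than for any other tested member (3.42, SE 0.48, adjusted p = 7.29e-06, edgeR). Its log2 fold change was 2.24 without sham replicate 8 and 5.44 without sham replicate 7. Nrp1, the co-receptor of Sema3a, had 4614 and 3549 counts against 1030 and 973 in sham (2.56, SE 0.20, adjusted p = 6.77e-09, edgeR). In all 3 rows both miR292sp libraries lay above the sham pair.

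Plxnb2, a receptor of class 4 semaphorins, was the most enriched plexin, with 785 and 845 counts with miR292sp against 90 and 97 in sham (3.64, SE 0.28, adjusted p = 6.91e-09, edgeR). Plxna1, a partner of the neuropilins, had 1427 and 1523 counts against 473 and 239 (2.62, SE 0.23, adjusted p = 3.55e-08, edgeR). Plxnc1, the receptor of Sema7a, had 1298 and 1151 counts against 484 and 282 (2.24, SE 0.25, adjusted p = 4.33e-07, edgeR). For these 2 genes the size also moved with the sham libraries, with log2 fold changes of 1.87 and 1.57 without sham replicate 8 and of 3.40 and 2.91 without replicate 7. The mossy fibre receptors Plxna4 and Plxna2 had log2 fold changes of 2.23 and 1.87, with enrichments of 4.76 and 4.63 for Plxna4 and of 3.53 and 3.81 for Plxna2. Plxnb1 alone among the 6 did not pass, with 142 and 146 counts with miR292sp against 149 and 139 in sham (0.53, 95% interval −0.32 to 1.37).

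**Figure D1:**
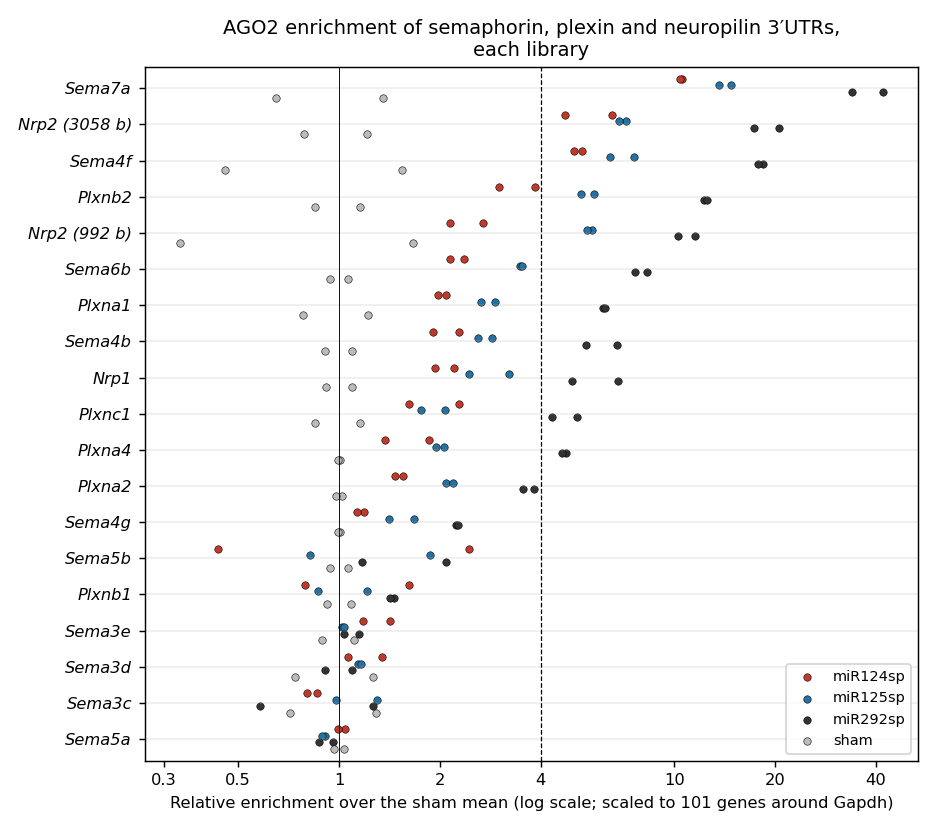
Relative enrichment (horizontal log axis, scaled count divided by the sham mean) of the 19 tested 3′UTRs of the family, with a point for each library; the solid line marks 1 and the dashed line the 4-fold limit. Sema7a stands at 33.9 and 42.1 in the miR292sp libraries, and the miR124sp and miR125sp points of the 11 3′UTRs above that limit lie between the miR292sp and the sham points.

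The study called a 3′UTR a target above 4-fold mean enrichment, which 27.2% of all 8203 3′UTRs passed with miR292sp. Of the members, 11 3′UTRs of 10 genes did: Sema7a, both of Nrp2, Sema4f, Plxnb2, Sema6b, Plxna1, Sema4b, Nrp1, Plxnc1 and Plxna4. Plxnc1 at 4.74 and Plxna4 at 4.69 lay just inside the limit, and Plxna2 at 3.67 just outside. A target counted as lost with a sponge when it left the 2230 highest ranks. With miR124sp, 1 of the 11 left them, Plxna4, at rank 5659, where 21.3% of all such targets did. With miR125sp 2 of the 11 did, Plxna4 at rank 5813 and Plxnc1 at 5608, where 17.2% of all did. Sema7a ranked 8190 with miR124sp and 8185 with miR125sp, against 8194 with miR292sp, and Plxnb2 ranked 7855 and 7965, against 7948.

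AGO2 meets its targets through bases 2 to 8 of the miRNA it carries, so the 3′UTRs were searched on the transcript's strand for the complements of those bases: GTGCCTT for miR-124, CTCAGGG for miR-125, CTACCTC for let-7, GGCACTT for miR-292 and ATAAGCT for miR-21. A match describes letters only and is not shown to be a site. The miRNAs that carry the seeds of 2 of these heptamers are printed with bases 2 to 8 in capitals, from RefSeq (GRCm38.p6).
mmu-miR-125b-5p: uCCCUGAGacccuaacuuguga
mmu-let-7a-5p: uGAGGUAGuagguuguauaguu

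A miR-124 match stood in 5 of the 19 member 3′UTRs, where 16.4% of the 8145 tested 3′UTRs with located sequence held one. All 5 are shown, because they cover members at both ends of the enrichment, from Nrp2 and Plxnb2 to Sema5a, with the match in capitals and coordinates in mm9.
Plxnb2, chr15:88986429-88986453, minus strand: gagcaattcgcaaatGTGCCTTaca
Nrp2, chr1:62863589-62863613, plus strand: tgtgttttttattaaGTGCCTTgaa
Nrp1, chr8:131027568-131027592, plus strand: tcttcgtcctctcaaGTGCCTTttt
Plxna4, chr6:32097491-32097515, minus strand: ccatgcaatccagtgGTGCCTTgtg
Sema5a, chr15:32624383-32624407, plus strand: tgtacaaagttgctaGTGCCTTtta

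In Plxnb2 the match lay at bases 273 to 279 of a 3′UTR of 732 bases and was followed by an A, the base that faces base 1 of a bound miRNA, and it was the only 1 of the 5 with that A. In Sema5a the match lay at bases 5228 to 5234 of 6926. The miR-125 heptamer stood in 6 member 3′UTRs (16.3% of all), Plxna1 and Sema4b with 2 matches each and Plxna2, Plxna4, Plxnb1 and Sema4f with 1, and let-7's in 6 (11.6% of all), Plxna2, Plxna4, Plxnc1, Sema4b, Sema4f and Sema4g. The miR-124, miR-125 and let-7 matches of Plxna4 all lay in the stretch shared with another annotated row, outside the 1361 bases that its tested row had to itself. In Sema4f the let-7 match at bases 1544 to 1550 ran into the miR-125 match at 1548 to 1554, as the overlapping windows show.
Sema4f, let-7, chr6:82861932-82861956, minus strand: aaagtggggatatacCTACCTCagg
Sema4f, miR-125, chr6:82861928-82861952, minus strand: tggggatatacctacCTCAGGGttg

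Sema7a, Sema6b, the shorter 3′UTR of Nrp2, Sema3c, Sema3d and Sema5b held none of the 5 heptamers. Of the 13 member 3′UTRs with any of them 10 passed as higher over sham with miR292sp, and of the 6 without one 3. Over all located 3′UTRs these shares were 68.7% of 3603 and 52.2% of 4542. The miR-292 heptamer stood in 4 (10.3% of all; Sema5a with 2) and that of miR-21 in 3 (8.46%). Member 3′UTRs were also longer than others, with a median of 2314 bases against 1377, and a longer sequence can hold more matches of any kind. Among members without a tested row, a 3′UTR row of Sema6a held 3 miR-124 matches, one of Plxna3 2 and one of Sema6d 1.

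The second comparison asked what the miR-124 sponge did to AGO2 binding, with the libraries scaled by TMM so that most 3′UTRs are taken as unchanged. Plxnb2 and Sema7a were lower with miR124sp than with miR292sp and Sema5a and Sema3e higher, 2 of 19 each way, where 3.45% of all 3′UTRs were lower and 5.1% higher. The median log2 fold change of the members was −0.49, against 0.04 over all 3′UTRs. The members started from more enrichment over sham, at a median of 4.74 with miR292sp against 2.39 over all 3′UTRs. With miR124sp these medians were 1.95 and 1.29, so enrichment was lower across the whole table. Members were not compared with other 3′UTRs of like starting enrichment, so their lower median is not shown to be particular to the family. An unadjusted p below 0.05 was reached by 12 of the 19 and by 2151 of all 8203.

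Plxnb2 had 84.1 and 97.0 CPM with miR124sp against 159 and 170 with miR292sp, a log2 fold change of −0.86 (SE 0.25, adjusted p = 0.0405, edgeR). Sema7a had 166 and 149 CPM with miR124sp against 247 and 321 with miR292sp (−0.85, SE 0.26, adjusted p = 0.0485, edgeR). In both genes the groups did not overlap, but both calls were lost when any of the 4 libraries was left out (adjusted p of 0.100 to 0.240 for Plxnb2 and of 0.109 to 0.331 for Sema7a). The 5 other 3′UTRs with the largest falls did not pass: Nrp2 at −1.15 for the shorter and −0.75 for the longer 3′UTR, Sema6b at −0.81, Sema4f at −0.80 and Plxna1 at −0.60 (adjusted p = 0.0591 to 0.122, edgeR).

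Sema5a had 1962 and 1685 CPM with miR124sp against 831 and 789 with miR292sp (1.17, SE 0.15, adjusted p = 0.000313, edgeR). Sema3e had 228 and 248 CPM with miR124sp against 92.1 and 107 with miR292sp (1.26, SE 0.21, adjusted p = 0.00239, edgeR), a call lost without miR292sp replicate 5 (adjusted p = 0.0760). Both rises rested on TMM. On the Gapdh scaling, which moves the median of all 3′UTRs to −0.97, Sema5a stood at 0.16 and Sema3e at 0.26 and neither passed, while 13 members were lower and 0 higher, where 4105 of all 3′UTRs were lower and 17 higher. Plxnb2 and Sema7a both stood at −1.86 on that scaling.

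In TMM-scaled CPM, Sema5a had 2327 and 2255 in the sham precipitates, above all sponge libraries. Sema3e had 221 and 247 CPM there, about as much as with miR124sp. On the Gapdh scaling this differed, with Sema5a at an enrichment of 1.04 and 0.99 with miR124sp against 0.96 and 1.04 in sham. Sema3e stood at 1.18 and 1.42 with miR124sp against 0.89 and 1.11 in sham on that scaling. The summed astrocyte markers were also highest in sham in TMM-scaled CPM. On the Gapdh scaling, of the 6 tested 2 were lower and 1 higher with miR292sp than in sham. The 7 markers Gfap, Aqp4, Slc1a2, Slc1a3, Aldh1l1, Gja1 and S100b, none of them at 0, summed to 42655 to 46877 CPM with miR124sp, 35229 to 36974 with miR125sp and 15337 to 15768 with miR292sp, against 58203 to 62335 in sham. Of the 6 that could be tested, 4 were higher with miR124sp and 3 with miR125sp than with miR292sp, and 0 lower. Their part in the values of Sema5a and Sema3e was not tested.

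With the miR-125 sponge, Sema5a was the only member past the threshold, at 1357 and 1384 CPM with miR125sp against 831 and 789 with miR292sp (0.76, SE 0.15, adjusted p = 0.0157, edgeR). That is 1 of 19 higher, where 1.18% of all 3′UTRs were higher and 0.232% lower. On the Gapdh scaling its log2 fold change was −0.02, and 11 members were lower at a median of −0.75 over all 3′UTRs; under TMM the call was lost when any of the 4 libraries was left out. The members' median was −0.27 against 0.03 over all 3′UTRs. Here too enrichment over sham was lower across the whole table, at a median of 1.47 with miR125sp against 2.39 with miR292sp. Sema7a had 170 and 194 CPM with miR125sp against 247 and 321 with miR292sp (−0.64, 95% interval −1.18 to −0.10, adjusted p = 0.211, edgeR), and the 6 members with a miR-125 match lay between −0.59 for Sema4f and 0.30 for Plxnb1 without a call.

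Set directly against each other, miR125sp and miR124sp differed in no member. No call was made in 19 3′UTRs, where 0.0122% of all were called; 2 members had an unadjusted p below 0.05, Sema5a (−0.41) and Sema3e (−0.56), both lower with miR125sp than with miR124sp (adjusted p = 0.862, edgeR), and DESeq2 also called 0. Plxnb2 was 0.47 higher with miR125sp on the log2 scale, with a 95% interval of −0.05 to 0.99, and the shorter 3′UTR of Nrp2 0.97 higher, with an interval of −0.0014 to 1.94. The 2 sponges are therefore not shown to differ in their effect on any member.

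**Figure D2:**
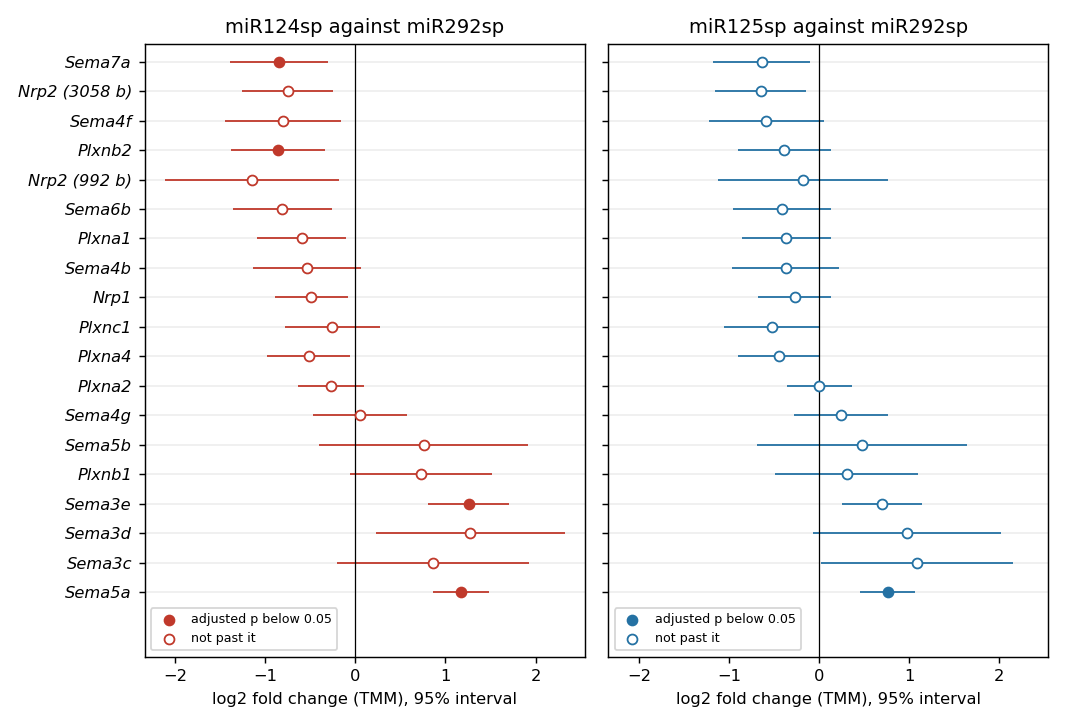
Log2 fold change of AGO2 precipitate counts (horizontal axis, TMM scaling, line: 95% interval) of the 19 3′UTRs for miR124sp (left) and miR125sp (right) against miR292sp, ordered as in the enrichment plot. Filled points passed the adjusted p of 0.05: Plxnb2 and Sema7a below 0 and Sema3e and Sema5a above it on the left, Sema5a alone on the right.

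The mRNA-seq then asked how the levels of the family changed in whole hippocampus. With miR124sp, 8 of the 25 members that could be tested were higher and 2 lower than in the GFP mice of the same experiment, where 12.6% of the 12971 genes were higher and 10.7% lower. The members' median log2 fold change was 0.23 against −0.01 over all genes. Those that rose were 5 semaphorins, Sema3f, Sema7a, Sema6a, Sema3g and Sema4c, and the plexins Plxna4, Plxnb3 and Plxna2. Those that fell were Plxnc1 and Plxnb1. A change in the tissue can come from the number of cells of a type as well as from the RNA per cell, and the counts cannot tell these apart.

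Sema3f, the secreted ligand that restrains dendritic spines through Nrp2, had 16.2, 13.6 and 8.56 CPM in the miR124sp mice against 6.19, 4.31 and 4.59 in GFP mice. All 3 miR124sp mice lay above the GFP mice, and the log2 fold change of 1.35 (SE 0.23, adjusted p = 0.00557, edgeR) was the family's largest. Sema7a had 280, 264 and 214 CPM in the miR124sp mice against 136, 145 and 170 in GFP mice (0.76, SE 0.12, adjusted p = 0.00430, edgeR). Sema6a, a transmembrane ligand of Plxna2 and Plxna4, had 84.8, 77.2 and 65.5 CPM in the miR124sp mice against 47.1, 49.6 and 48.0 in GFP mice (0.67, SE 0.09, adjusted p = 0.00394, edgeR). These 3 and Plxna2 passed the threshold in every alternative fit, leaving out each mouse included.

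Plxna2, which with Plxna4 sorts mossy fibres into layers, had 253, 257 and 215 CPM in the miR124sp mice against 169, 168 and 186 in GFP mice (0.48, SE 0.09, adjusted p = 0.00618, edgeR). Plxna4 had 377, 431 and 432 CPM against 244, 288 and 335 (0.53, SE 0.11, adjusted p = 0.0119, edgeR). The groups did not overlap in either gene, but Plxna4 was lost without GFP replicate 15 or without miR124sp replicate 2. Plxnb3, a plexin known from oligodendrocytes, had 59.7, 42.8 and 41.9 CPM in the miR124sp mice against 32.0, 40.7 and 28.8 in GFP mice (0.53, SE 0.16, adjusted p = 0.0408, edgeR), a call lost without GFP replicate 15 or 8 or without miR124sp replicate 14 or 2. Sema3g, a secreted ligand of Nrp2 (0.47, SE 0.15, adjusted p = 0.0438, edgeR), and Sema4c, a ligand of Plxnb2 (0.38, SE 0.08, adjusted p = 0.0115, edgeR), rose least. Sema4c was lost without GFP replicate 15 or without miR124sp replicate 14 or 2, and Sema3g in 8 of 12 alternatives, among them every mouse left out but miR124sp replicate 9.

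Plxnc1 had 80.5, 75.3 and 88.1 CPM in the miR124sp mice against 107, 106 and 110 in GFP mice, below all of them (−0.39, SE 0.07, adjusted p = 0.00730, edgeR), so that the receptor fell while its ligand Sema7a rose. Plxnb1 had 193, 177 and 179 CPM against 214, 259 and 210 (−0.30, SE 0.09, adjusted p = 0.0400, edgeR), a call lost in 6 of 12 alternatives, among them every mouse left out but GFP replicate 8. Plxna1 narrowly missed the threshold, at 289, 278 and 293 CPM against 231, 263 and 249 (0.22, SE 0.07, adjusted p = 0.0503, edgeR). Nrp1 had 142, 158 and 205 CPM against 154, 169 and 189, with a 95% interval of the log2 fold change of −0.30 to 0.28. Plxnd1 (0.23) differed within its group, with 117 and 107 CPM in 2 miR124sp mice and 72.3 in the third. Of the 10 calls, 5 could be set beside a tested 3′UTR: Sema7a, Plxna2, Plxna4 and Plxnc1 had a mean AGO2 enrichment of 3.67 to 38.0 with miR292sp, and Plxnb1 of 1.44.

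The column headers of 8 of the 12 mRNA libraries carry a mark whose meaning the labels leave unstated, and 2 of the 3 miR124sp mice lack it while all 3 of their GFP mice carry it. With the mark as a term of the fit, chosen after the data were seen, Sema3f (1.69), Plxnb3 (0.83), Sema6a (0.83), Sema7a (0.91) and Plxna2 (0.55) remained past the threshold. Plxna4, Plxnc1, Plxnb1, Sema3g and Sema4c did not (adjusted p = 0.0555 to 0.307). Markers of other cells also moved. The 6 oligodendrocyte markers that could be tested summed to 619 to 839 CPM in the miR124sp mice against 449 to 493 in GFP mice, with 4 of 6 higher. The astrocyte markers summed to 2622 to 2855 CPM against 3347 to 3942, with 4 of 7 lower, and the 6 microglial markers, Itgam at 0, to 441 to 456 against 490 to 561, with 3 of 5 lower. The 8 neuronal markers, with 2 higher and 1 lower of 7, summed to 3993 to 4668 against 4058 to 4647. The 5 markers of inhibitory neurons summed to 1250 to 1491 CPM against 852 to 1171, with 3 of 5 higher, and the 3 of the choroid plexus varied within both groups, at 25.3 to 2160 CPM against 77.8 to 3990. The 3 markers of dentate granule cells summed to 252 to 368 CPM against 170 to 291, with 1 of 3 higher. The 4 of pyramidal cells summed to 596 to 618 CPM against 511 to 576, with 1 higher and 1 lower. The part of all these markers in the members' values was not tested.

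**Figure D3:**
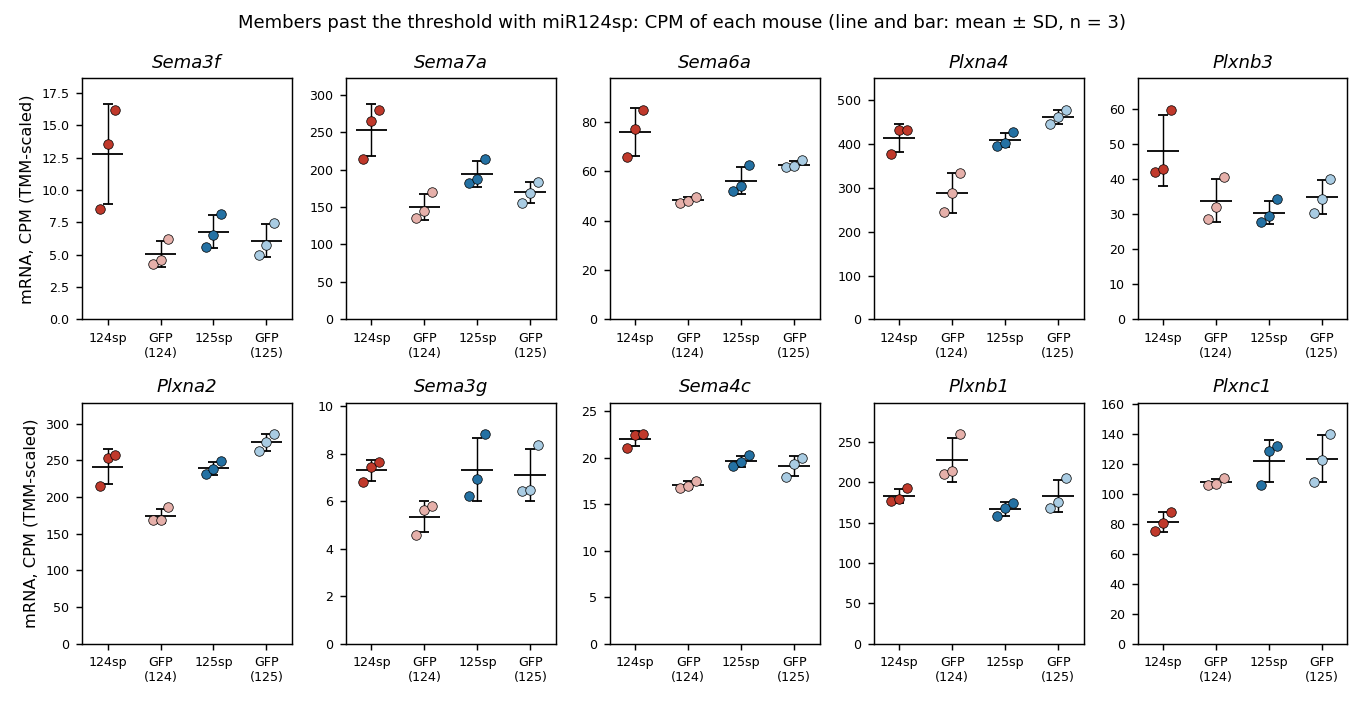
CPM per mouse (vertical axis, linear from 0) of the 10 members called with miR124sp, in the miR124sp mice and their GFP mice and in the miR125sp mice and theirs; lines and bars are mean ± SD (n = 3). In the GFP mice of the miR-125 experiment Plxna2 stood at 263 to 286 CPM, above the 168 to 186 of the other GFP group.

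With miR125sp, 0 of the 25 members tested passed, where 0.206% of the 12638 genes were called. At an unadjusted p below 0.05 there were 8 members and 1659 genes in all. DESeq2 called 2 members, Plxna2 and Plxna4, both lower, and 72 genes in all each way. Plxna2 had 249, 231 and 238 CPM in the miR125sp mice against 286, 276 and 263 in GFP mice (−0.20, 95% interval −0.30 to −0.09, adjusted p = 0.126, edgeR). Plxna4 had 428, 403 and 396 CPM against 462, 478 and 445 (−0.18, 95% interval −0.28 to −0.07, adjusted p = 0.165, edgeR), so that in both genes every miR125sp mouse lay below every GFP mouse. Sema7a had 214, 187 and 182 CPM against 184, 156 and 169 (0.20, 95% interval 0.04 to 0.35). Nrp1 had 207, 222 and 230 CPM against 254, 236 and 256 (−0.18, 95% interval −0.29 to −0.07, adjusted p = 0.165, edgeR), again with every miR125sp mouse below every GFP mouse. Sema6b, one of the genes with several transcripts, had the largest rise, 0.87, from 294 counts in the 12 mice together. Sema4a, another of these genes, had the largest fall, −1.07, from 150 counts.

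The difference between the effects of the 2 sponges, the log2 fold change with miR125sp minus that with miR124sp, was tested over all 12 mice. It was negative and past the threshold in 7 of 26 members and positive in 0, where 7.42% of the 13268 genes were lower and 7.06% higher. These were Sema3f (−1.14), Sema6a (−0.81), Plxnb3 (−0.70), Plxna4 (−0.69), Plxna2 (−0.67), Sema7a (−0.55) and Sema4c (−0.33). The GFP mice of the 2 experiments entered with levels of their own. In the GFP mice of the miR-125 experiment Plxna2 ran from 263 to 286 CPM against 168 to 186 in the other GFP mice, Plxna4 from 445 to 478 against 244 to 335, and Sema6a from 61.5 to 64.3 against 47.1 to 49.6. The 2 GFP groups did not overlap in 11 of the 26 members, where they did not in 44.1% of all genes. The sponge mice did not overlap in 13, where they did not in 25.3%. For Plxna2 and Plxna4 it was the GFP groups that stood apart, and the sponge mice overlapped, at 231 to 249 CPM with miR125sp and 215 to 257 with miR124sp for Plxna2. For Sema3f and Plxnb3 the GFP groups overlapped and the sponge mice did not, with Sema3f at 5.63 to 8.15 CPM with miR125sp and 8.56 to 16.2 with miR124sp. Sema6a and Sema4c stood apart in both, and Sema7a in neither. Only Plxna2 and Sema6a kept their call in all 17 alternatives. For this difference 4 of the 6 tested oligodendrocyte markers were also lower, with a median of −0.68, and 1 of 5 markers of inhibitory neurons (median −0.40), while 2 of 7 astrocyte markers were higher. The 3 markers of dentate granule cells had a median of −0.61, with 0 called, and 1 of 4 markers of pyramidal cells was higher (median 0.11). The part of all these markers in the members' values was not tested.

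**Figure D4:**
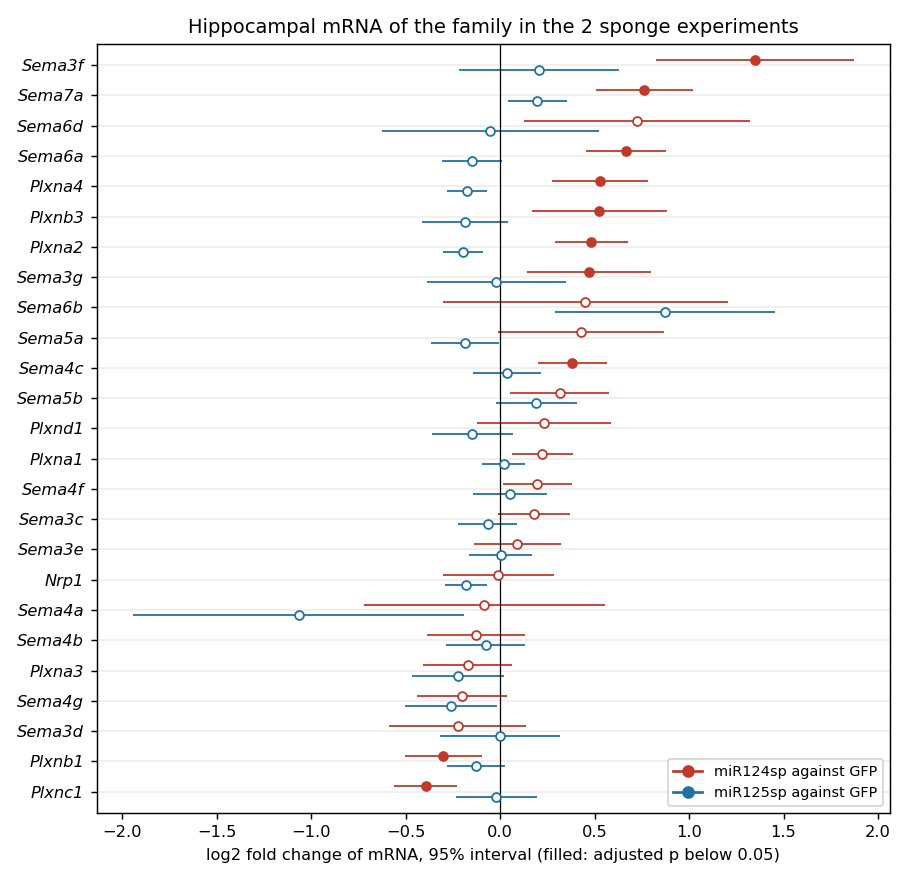
Log2 fold change of hippocampal mRNA (horizontal axis, line: 95% interval) of the 25 members tested in both experiments, for miR124sp (above) and miR125sp (below) against their own GFP mice; filled points passed the adjusted p of 0.05. With miR124sp 8 members lie filled above 0 and Plxnb1 and Plxnc1 below it, and with miR125sp none is filled.

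Around the family, 46 genes that carry plexin signals inside the cell or form their receptor complexes were looked at in the same fits. In the AGO2 precipitate 22 could be tested, on 23 3′UTRs, and 19 of these rose with miR292sp over sham and 0 fell, where 59.4% of all 3′UTRs were higher. Their median log2 fold change was 1.95, against 1.26 over all. Itgb1, the β1 integrin that binds Sema7a, rose most (5.26, SE 0.25), followed by the small GTPases Rras (3.00, SE 0.52) and Rap1a (2.93, SE 0.33), on which plexins act, the scaffold protein Ranbp9 (2.92, SE 0.37), the GTPase Rras2 (2.83, SE 0.28) and the kinase Gsk3b (2.59, SE 0.23). Between sponges only the GTPase Rhoa passed, higher with miR124sp than with miR292sp (0.89, SE 0.20, adjusted p = 0.0142, edgeR), where 5.1% of all 3′UTRs were higher. Over sham Rhoa had not passed (0.20, SE 0.21). Its call between sponges holds for TMM. The Gapdh scaling moves the median of all 3′UTRs to −0.97 and leaves 17 of them higher, and Rhoa was not followed there. In the mRNA-seq with miR124sp 9 of 44 rose and 2 fell, where 12.6% of all genes were higher and 10.7% lower, with a median of 0.11 against −0.01 over all. The largest rises were in Rnd1 (0.73), a GTPase that binds plexins, the kinases Pak1 (0.62), Rock2 (0.45), Gsk3b (0.43) and Limk1 (0.40), which act on actin and microtubules, and the actin oxidase Mical3 (0.40), and the falls in the adaptor Tyrobp (−0.40) and in Rap1a (−0.29). With miR125sp 0 of 43 passed (8 at an unadjusted p below 0.05, edgeR). The difference of effects passed in 8 of 44, where 7.42% of all genes were lower and 7.06% higher, negative in Mical3 (−0.56), Pak1 (−0.47), Gsk3b (−0.44), Dpysl2 (−0.42), Rock2 (−0.41) and Arhgef11 (−0.32), an exchange factor that binds B-type plexins, and positive in Dpysl3 (1.47) and Cdk5 (0.24).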

How the data were processed

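RNA from precipitates made with antibodies to GFP (8 libraries, 2 of them from sham-injected mice without GFP-AGO2) and from whole hippocampus (12 mice) was sequenced. The authors deposited raw counts, per annotated 3′UTR for the RIP-seq and per RefSeq transcript for the mRNA-seq. Per the paper, reads were mapped to mm9 and 3′UTR counts were scaled to the mean of 101 genes, Gapdh with its 50 neighbours above and 50 below in the sorted raw ratios. The submitters' notes name STAR, edgeR and mm10, and give no rule for reads that match several transcripts. Of the 38158 3′UTR rows, 98.0% had a symbol and 82.7% the 3′UTR length in GENCODE M1 (NCBIM37, mm9), which gave names, coordinates and sequences. Of 32850 transcripts, 98.7% had a symbol, those without one held 0.849% of the counts, and counts were summed per symbol.

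Tests used edgeR 4.0.16 (quasi-likelihood, R 4.3.3) on all features, with Benjamini-Hochberg adjustment and a threshold of 0.05. The 8 RIP libraries shared 1 fit over 3′UTRs with at least 10 counts in every library. TMM scaled the libraries for sponge against sponge and the Gapdh set for miR292sp against sham. The mRNA experiments were fitted apart, each on 6 mice (filterByExpr, TMM), and together for the difference of effects. CPM are TMM-scaled. Alternatives were the other scaling, DESeq2 1.42.0, other filters, counts summed per gene, the highest transcript, other sets of libraries, each library left out, 8-base matches and the header mark. The scripts were tested on simulated data. Tables and plots used Python 3.11.15, numpy 2.4.6, pandas 2.3.3 and matplotlib 3.10.9.

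The members and lists were chosen with earlier results of these data known. Every member is accounted for, and up to 10 called members per comparison with the largest change are given in full, with up to 6 of the pathway list. Replicate libraries differed by more than counting noise (chi-square over its degrees of freedom: RIP 9.29 to 13.1, mice 3.48 to 21.1), and none were merged.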

Additional observations from a re-analysis of the deposited data

Results flagged for a closer look

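The effect of the sponge on mRNA differed between the miR-125 and the miR-124 experiment, by the test of the difference itself, in 7 members. As the log2 fold change with miR125sp minus that with miR124sp it was −1.14 for Sema3f, −0.81 for Sema6a, −0.70 for Plxnb3, −0.69 for Plxna4, −0.67 for Plxna2, −0.55 for Sema7a and −0.33 for Sema4c. The GFP mice of the 2 experiments did not overlap in 4 of the 7, where they did not in 44.1% of all genes. With the header mark as a term of the fit, Sema3f, Plxna4, Sema7a and Sema4c did not keep their call. Groups of 2 or 3 samples were too small for a check of single outlying samples.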

How the results depend on the processing

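Of 1717 values of single members under an alternative, 1576 kept direction and side of the threshold, 81 lost a call, 54 gained one (20 of them on the Gapdh scaling) and 6 reversed. The reversed values were those of Sema4g (−0.20), Sema3d (−1.33) and Sema3e (−1.24) for miR292sp over sham under TMM, where 4 members were lower, and on the Gapdh scaling those of Sema4g (−0.96) for miR124sp over miR292sp and of Plxna2 (−0.78) and Sema5a (−0.024) for miR125sp over miR292sp. On that scaling 0 members were higher and 13 lower with miR124sp than with miR292sp, where 4105 of all 3′UTRs were lower, and 0 higher and 11 lower with miR125sp, where 3132 were lower.

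With miR124sp against miR292sp, 4 members were lower under DESeq2 and with counts summed per gene, 7 in a fit of the compared libraries alone and 0 under filterByExpr. Over all features, 613, 318, 593 and 169 were lower in these fits, in that order. With miR125sp 2 were higher under DESeq2, 2 higher and 2 lower in the compared libraries alone, and 0 higher under filterByExpr. Over all 3′UTRs, 196 were higher under DESeq2, 273 higher and 241 lower in the compared libraries alone, and 29 higher under filterByExpr. Over all 3′UTRs the calls were as mobile, with 418 higher and 283 lower for miR124sp against 613 lower under DESeq2, and 97 and 19 for miR125sp against 196 and 178. In the mRNA-seq, DESeq2 called 2 members lower with miR125sp, where 72 of all genes were lower. The header mark left 5 higher and 0 lower with miR124sp, where 830 of all genes were higher and 623 lower. For the difference of effects Plxna2, Plxnb3 and Sema6a kept their calls with the mark, and Sema3f, Plxna4, Sema7a and Sema4c did not. Without a filter on low counts 1 member was higher, where 7.06% of the genes were higher in the fit with the filter. Among matches of 8 bases 5 member 3′UTRs remained for miR-125, 3 for let-7, 3 for miR-21, 1 for miR-124 and 0 for miR-292. For miR-125, let-7 and miR-21 the added base was a following A or a letter pairing with the next base of the miRNA. For miR-124 and miR-292 only the A could count, so their numbers are not comparable with the others.

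In the RIP-seq, leaving out a library left 1 in its group, so only log2 fold changes are given for these fits. With miR124sp against miR292sp, Plxnb2 lay between −0.97 and −0.76 and Sema7a between −1.03 and −0.65. With miR125sp against miR292sp, Sema5a lay between 0.72 and 0.80. In the mRNA-seq, with each mouse left out in turn, 4 to 10 members were higher and 1 to 2 lower with miR124sp, where 444 to 2052 of all genes were higher and 550 to 1969 lower. With miR125sp 0 members passed, where 0.206% of the 12638 genes did with all mice. For the difference of effects Plxna2, Plxna4 and Sema6a kept their calls with each mouse left out. Plxnb3, Sema3f, Sema4c and Sema7a lost theirs without at least 1 of the mice. Where 1 library was left in a group, edgeR takes it to vary like the others. No paired analysis was possible because no sponge group shares a replicate number with its control, and across the 2 mRNA experiments no 2 groups share more than 1. The cause of these changes was not tested.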
